A study of Mus musculus with 6 samples.

Results

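The glutathione peroxidase genes and the genes that make and recycle glutathione were followed in the olfactory epithelium, where the neurons that detect odours lie. The members were 10 genes: the peroxidases Gpx1, Gpx2, Gpx3, Gpx4, Gpx6 and Gpx7, glutathione reductase (Gsr), both subunits of glutamate-cysteine ligase (Gclc and Gclm), and glutathione synthetase (Gss). Every probe set, a group of short probes against 1 transcript, was taken if the platform annotation named only 1 of these genes for it, which gave 15 of the 45101 probe sets on the array. Total RNA of the epithelium was extracted with TRI reagent and hybridised to Affymetrix mouse 430 2.0 arrays, 1 sample to an array. There were 3 arrays of mice homozygous for OMP-GFP and 3 of mice heterozygous for it. In this line, as background, green fluorescent protein replaces the coding sequence of olfactory marker protein (Omp), an abundant protein of mature olfactory neurons. Homozygous mice therefore lack the protein, and heterozygous mice keep 1 intact allele. Both groups carry GFP, no group without it was measured, and the groups differ in GFP copies as well as in Omp. The labels used here give neither the age, sex or strain of the mice nor whether animals were pooled, so p-values reflect only how far these samples lie apart.

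Glutathione is a small thiol peptide that cells use to remove peroxides and to tag reactive chemicals. It is made in a pair of steps: glutamate-cysteine ligase, with a catalytic subunit (Gclc) and a modifier subunit (Gclm), joins glutamate to cysteine, and glutathione synthetase (Gss) adds glycine. Glutathione peroxidases spend reduced glutathione on hydrogen peroxide or lipid peroxides, and glutathione reductase (Gsr) restores it with NADPH. Several peroxidases carry selenocysteine in the active site, while mouse Gpx6 and Gpx7 carry cysteine there. The nasal lining meets inhaled oxidants and odorants directly, and Gpx6 is known chiefly from olfactory tissue.

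Sequences upstream of the genes are shown for the 3 members whose RefSeq promoter window held the core of the antioxidant response element, TGANNNNGC, through which the factor Nrf2 controls many glutathione genes. The windows run from 250 bases before to 50 after the annotated start, in assembly GRCm38.p6, and were found for 8 of the 10 genes. The 250 bases before the start are printed 5′ to 3′ on the strand of the gene. Capitals mark the core, which in each case lies on the opposite strand and so reads as its reverse complement.
Gpx6 (chr13:21311953-21312202, plus strand): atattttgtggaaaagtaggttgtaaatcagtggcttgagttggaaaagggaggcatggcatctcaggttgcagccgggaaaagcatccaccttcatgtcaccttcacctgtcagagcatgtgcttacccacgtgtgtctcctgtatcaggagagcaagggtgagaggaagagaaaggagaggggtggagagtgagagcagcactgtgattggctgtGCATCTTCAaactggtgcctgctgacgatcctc
Gpx2 (chr12:76795555-76795804, minus strand): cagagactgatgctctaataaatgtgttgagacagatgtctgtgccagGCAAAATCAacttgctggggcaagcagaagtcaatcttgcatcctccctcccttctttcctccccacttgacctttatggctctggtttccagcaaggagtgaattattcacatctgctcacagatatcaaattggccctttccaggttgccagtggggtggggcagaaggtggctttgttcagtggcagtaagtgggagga
Gclm (chr3:122245307-122245556, plus strand): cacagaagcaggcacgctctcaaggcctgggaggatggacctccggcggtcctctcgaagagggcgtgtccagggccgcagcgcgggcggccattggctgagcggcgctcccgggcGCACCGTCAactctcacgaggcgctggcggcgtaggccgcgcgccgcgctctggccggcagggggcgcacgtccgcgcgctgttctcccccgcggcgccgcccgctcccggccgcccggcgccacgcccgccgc

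The core TGANNNNGC, searched on both strands, was held by 3 of these 8 genes, and by 41.3% of all 32851 promoter windows of the same length. The 8 genes had 11 windows, 4 of them of Gpx4. Members are counted by gene, with a match in any window enough, and the background by window, so the shares are not of like units. A stricter form, TGACNNNGC, whose matches are a subset of the first, was found only at Gclm among the members and in 12.4% of all windows. The GC box GGGCGG was found at 6 of the 8 genes (35.7% of all windows), and TATAAA at 0 of them (13.6%), both searched on both strands. The windows of Gpx2 and Gpx6, which are known for restricted expression, held 0 and 3 CpG pairs, and that of Gclm held 48, with a median of 7 over all windows. These matches are descriptions of the letters in the windows, not binding sites.

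The arrays were checked before the members were compared. The Omp probe set 1422199_at read 5.7, 8.8 and 31.3 on the homozygous arrays, 26.3 on the library labelled heterozygous 1, and 4664 and 9143 on heterozygous 2 and 3. The library labelled heterozygous 1 thus read like a homozygous array there. The other Omp probe set, 1422200_at, did not split the arrays this way. It read 7918.5, 8147.7 and 8774.4 on the homozygous and 8708.7, 7967.8 and 8318.5 on the heterozygous arrays. Whether 1422199_at falls within the sequence replaced by GFP cannot be told from the labels. The members' differences and the counts over the further gene lists are therefore given with and without the library labelled heterozygous 1. The same library held a summed signal of 13149 over the 4 measured myelin markers, against 2156 to 2594 on the other arrays, and heterozygous 3 held 2737 over the 8 brain and olfactory bulb markers, against 992 to 1414. Of these 8 markers, 6 were themselves highest on heterozygous 3, while Eomes was lowest there, at 205. Only 4 of the 8 were above the median signal used as a filter. Defining genes of olfactory neurons and supporting cells were bright on all arrays: the channel gene Cnga2 read 5968 to 8056 and the sustentacular gene Cyp2g1 17796 to 18562. The 6 measured markers of mature neurons nevertheless had their lowest sum, 49087, on heterozygous 3, against 57562 to 63031 elsewhere, and 5 of the 6 were lowest there. Of the 16 marker lists 3 had sums that separated the genotypes. Immature neuron markers summed to 45483 to 46154 on homozygous and 46687 to 47770 on heterozygous arrays. Macrophage markers summed to 6644 to 7092 and 6339 to 6531, and those of vessel and stroma to 59752 to 60681 and 56641 to 58713. Not every gene followed the sum of its list. Stmn1, the brightest immature neuron marker, read 19547, 20262.5 and 20100.8 on the homozygous and 19733.9, 19037.6 and 19033.5 on the heterozygous arrays. The macrophage marker C1qa read 468, 428 and 348 against 408, 466 and 433. For scale, the groups did not overlap at 10.3% of all single genes tested. The part of these cells in the differences below was not tested. The 4 measured lymphocyte markers were all below the median signal used as a filter. Xist, made from the inactive X chromosome, read 3.1 on homozygous 1 and 874 to 3349 on the others at probe set 1427262_at. Y-linked Eif2s3y read 8.0 on homozygous 3 and 32.8 on heterozygous 2 against 435 to 1485 on the other 4 arrays. The arrays are thus not matched for sex-linked transcripts. Homozygous 2, heterozygous 1 and heterozygous 3 held both, at 874, 1961 and 2422 for Xist and 1060, 435 and 533 for Eif2s3y. Whether these libraries hold RNA of more than 1 animal was not tested. In such bulk RNA, fewer cells of a type and less RNA per cell cannot be told apart.

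No difference between the genotypes was called for any of the 10 genes. Of the 15 probe sets, 0 passed an adjusted p of 0.05 in limma, where 0% of the 22514 probe sets tested did. At an unadjusted p under 0.05 there were 0 of 15, beside 5.73% of all probe sets tested, and for 0 of 15 did the arrays of the groups not overlap, beside 10.9%. The members' adjusted p lay between 0.900 and 0.995. The signals below are MAS5 signals on a linear scale. Differences are homozygous minus heterozygous on the scale of log2(signal + 38.8), with the standard error of the limma fit.

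**Figure D1:**
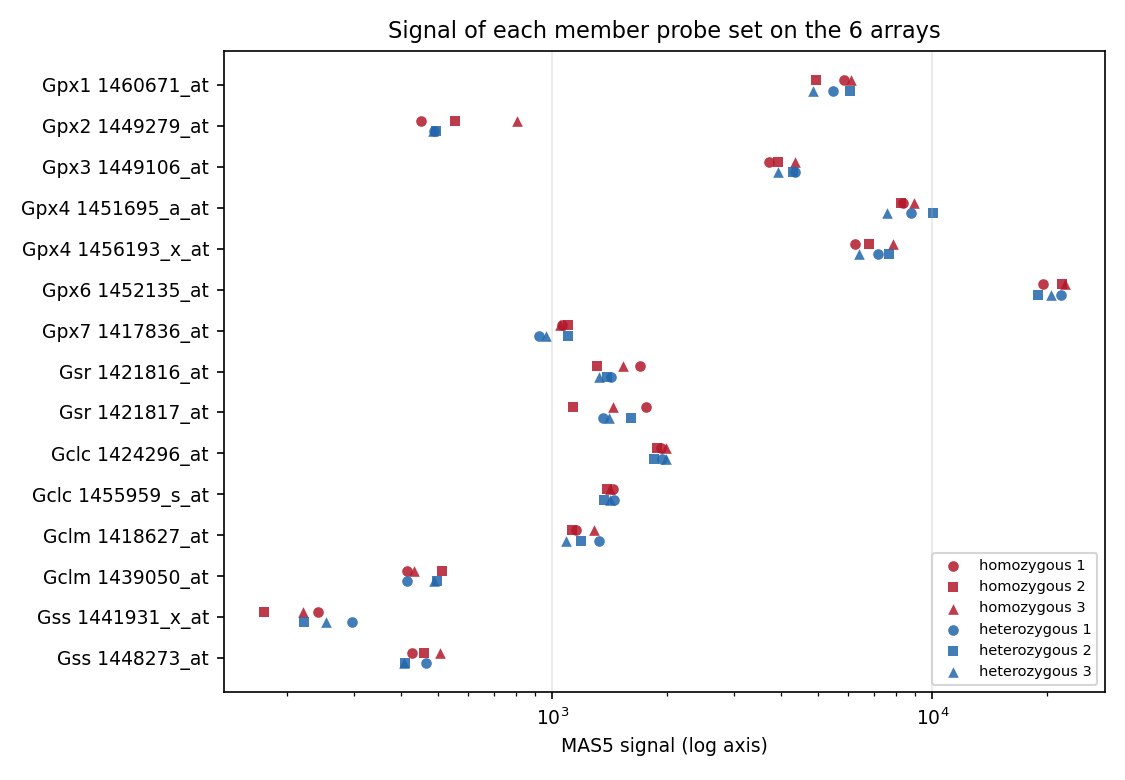
MAS5 signal (log axis) of each of the 15 probe sets of the 10 genes on 3 homozygous (red, upper of each row) and 3 heterozygous (blue, lower) arrays, with 1 point for each array and a marker shape for each replicate number. Homozygous and heterozygous points overlap in every row, and Gpx2 on homozygous 3 stands apart at 806.

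The highest signal among the members was that of Gpx6, the peroxidase known from olfactory tissue. Its probe set 1452135_at read 19561, 21915 and 22285 on homozygous 1, 2 and 3, and 21748, 18933 and 20455 on heterozygous 1, 2 and 3. By mean signal it was the 46th of all probe sets other than controls, at the 99.9th percentile. Probe sets bind with unequal strength, so such ranks order signals and not transcript amounts. High and low arrays were found in both groups, and the difference was 0.06 ± 0.07 (SE; 95% interval -0.09 to 0.21). The 7 measured gland markers, whose summed signal was 97716 to 105421 on homozygous and 90120 to 107828 on heterozygous arrays, had their highest sum on heterozygous 2, the array on which Gpx6 was lowest. Of the 7 only Obp1a was itself highest there, and the part of these cells in the Gpx6 signal was not tested.

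Gpx4, which reduces lipid peroxides within membranes, and Gpx1, the main cytosolic peroxidase, were also among the bright probe sets. The Gpx4 probe set 1451695_a_at read 8341, 8287 and 8947 on the homozygous and 8760, 10019 and 7588 on the heterozygous arrays. The lowest and the highest values were thus both heterozygous, and the difference was -0.04 ± 0.09. The other Gpx4 probe set, 1456193_x_at, read 6251, 6789 and 7869 against 7202, 7696 and 6424, with a difference of -0.03 ± 0.09. Its ending marks probes that can bind other transcripts as well. Gpx1 at 1460671_at read 5860, 4926 and 6105 on the homozygous and 5469, 6053 and 4850 on the heterozygous arrays. It was low on homozygous 2 and heterozygous 3 alike, and the difference was 0.04 ± 0.10. Their mean signals lay at the 98.9th, 98.5th and 97.8th percentile.

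Gpx3, the secreted peroxidase of plasma and extracellular fluid, read 3724, 3925 and 4349 on the homozygous and 4352, 4286 and 3931 on the heterozygous arrays (1449106_at). The groups overlapped through homozygous 3 and heterozygous 3, and the difference was -0.07 ± 0.08. Gpx7, a peroxidase of the endoplasmic reticulum, read 1058, 1097 and 1045 against 922, 1101 and 962 (1417836_at). Heterozygous 2 had its highest value, above all homozygous arrays, and the difference was 0.10 ± 0.09.

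Gpx2, an epithelial peroxidase known best from the gut, varied most. Its probe set 1449279_at read 452, 554 and 806 on homozygous 1, 2 and 3 but 489, 495 and 484 on the heterozygous arrays. The homozygous group therefore held both the lowest and the highest array, while the heterozygous arrays lay close together. Mean signal was 604 ± 182 over the homozygous arrays (SD, n = 3) and 489 ± 5.2 over the heterozygous ones (SD, n = 3). The difference was 0.25 ± 0.17 (95% interval -0.12 to 0.61), with an adjusted p of 0.909 in limma. It was 0.03 without homozygous 3 and 0.42 without homozygous 1, where the unadjusted p was 0.0194 and the adjusted p 1.00 (lowest of any alternative 0.711, highest 1.00). Without the library labelled heterozygous 1 it was 0.25.

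Homozygous 3 was also the high array of the genes whose pattern was most like that of Gpx2. Likeness was the root mean square difference between log2 values, each centred on its mean over the 6 arrays. The 5 nearest of the 11426 genes tested were Ier3, an early response gene, Smyd3, which encodes a methyltransferase, Cfap43, a gene of motile cilia, Gsto1, an omega-class glutathione transferase, and Pcsk4, a proprotein convertase gene, at distances of 0.08 for Ier3 to 0.10 for Pcsk4. Gsto1 read 3031 on homozygous 3 and 1995 to 2284 on the other arrays, and Ier3 read 1504 there and 930 to 1060 on the others. The 6 markers of respiratory ciliated cells had their highest sum, 10543, on homozygous 3, beside 9669 and 10279 on the other homozygous and 9388 to 9848 on the heterozygous arrays, and 1 of the 6, Dynlrb2, was itself highest there. Homozygous 3 also had the highest sums of 4 other marker lists. These were macrophages (7092, against 6339 to 7025 elsewhere), vessel and stroma (60681, against 56641 to 60219), neutrophils (13007, against 8584 to 12091) and skeletal muscle (520, against 211 to 395). The genes themselves highest there were 3 of 8 for macrophages, 3 of 7 for vessel and stroma, 1 of 7 for neutrophils and 3 of 5 for muscle. Only 1 of the 5 muscle markers was above the filter. The part of these cells in the Gpx2 signal was not tested, nor was that of the sex-linked difference.

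**Figure D2:**
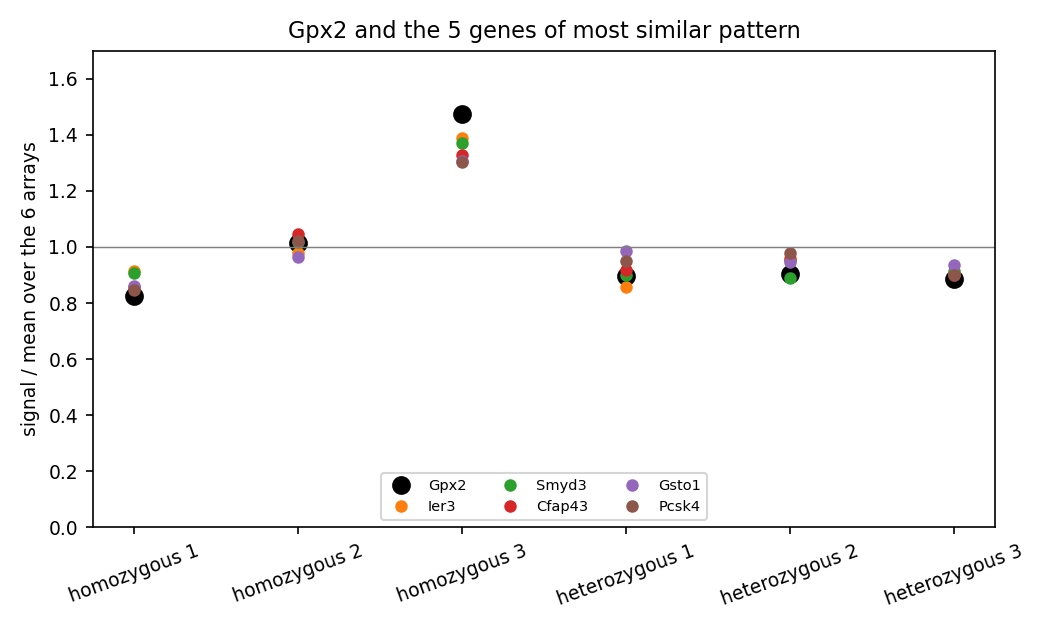
Signal of Gpx2 (large black points) and of the 5 genes nearest to it in pattern, each divided by its mean over the 6 arrays. All 6 genes are highest on homozygous 3, where Gpx2 read 806, and lie near or below their mean on the other 5 arrays; the genes were chosen for this likeness.

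Gsr, which returns oxidised glutathione to its reduced form, had a pair of probe sets that ranked the homozygous arrays alike. At 1421816_at it read 1703, 1313 and 1532 on the homozygous and 1428, 1395 and 1327 on the heterozygous arrays. At 1421817_at the values were 1763, 1130 and 1446 against 1357, 1611 and 1412. Homozygous 1 was the highest and homozygous 2 the lowest array of all 6 at both. The differences were 0.12 ± 0.10 and -0.03 ± 0.14, of opposite sign. Without homozygous 2 that of 1421816_at was 0.22, with an unadjusted p of 0.0489 and a limma adjusted p of 1.00 (lowest of any alternative 0.812, highest 1.00).

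Gclc, the catalytic subunit that sets the pace of glutathione synthesis, was the steadiest member. At 1424296_at it read 1926, 1886 and 1992 on the homozygous and 1939, 1855 and 1987 on the heterozygous arrays. At 1455959_s_at the values were 1446, 1395 and 1419 against 1452, 1368 and 1417. The highest array was 1.07 and 1.06 times the lowest, and both differences were 0.01 ± 0.07. The modifier subunit gene Gclm read 1157, 1123 and 1284 against 1325, 1187 and 1082 at 1418627_at, a difference of -0.01 ± 0.10. At its dimmer probe set 1439050_at it read 415, 512 and 431 against 413, 495 and 487, a difference of -0.04 ± 0.12. The library labelled heterozygous 1 was the highest array at the former and the lowest at the latter, so the probe sets of Gclm did not rank the arrays alike.

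Gss, which completes glutathione, gave estimates of opposite sign at its probe sets. At 1448273_at it read 428, 458 and 506 on the homozygous and 465, 408 and 407 on the heterozygous arrays, a difference of 0.11 ± 0.11. At 1441931_x_at, whose probes can bind other transcripts, it read 242, 174 and 221 against 298, 222 and 254, a difference of -0.24 ± 0.15 (95% interval -0.58 to 0.09). The groups overlapped at each, and the difference between the probe sets was not tested. Without the library labelled heterozygous 1 the differences were 0.17 and -0.15.

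The size of change that these arrays leave possible can be read from the intervals. They are folds of the signal plus the offset of 38.8, which understates changes of dim probe sets. On that scale all 15 of the 95% intervals lay within a 2-fold change in either direction. The interval of Gpx2 reached 1.53-fold. The dim Gss probe set 1441931_x_at reached down to 0.669-fold, and with an offset of 1 its difference was -0.28. For Gclc the intervals ran from 0.90-fold to 1.12-fold at 1424296_at and from 0.90-fold to 1.13-fold at 1455959_s_at. Of the 15 differences 8 were above 0 and 7 below, and their median was 0.006, beside a median of 0.010 over all probe sets tested. Without the library labelled heterozygous 1, 0 of 15 passed adjustment, beside 0.111% of all probe sets tested, 0 of 15 passed an unadjusted p of 0.05, beside 7.06% of all probe sets tested, and 1 of 15 had groups without overlap, the Gss probe set 1448273_at, beside 22.2%. The log2 difference without that library was 0.11 for Gpx6, 0.05 for Gpx7, 0.05 for Gpx1 and -0.04 for Gpx3, and for Gpx4 -0.03 at 1451695_a_at and -0.02 at 1456193_x_at. For Gsr it was 0.14 at 1421816_at and -0.08 at 1421817_at, for Gclc 0.01 and 0.03 at 1424296_at and 1455959_s_at, and for Gclm 0.06 and -0.11 at 1418627_at and 1439050_at.

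**Figure D3:**
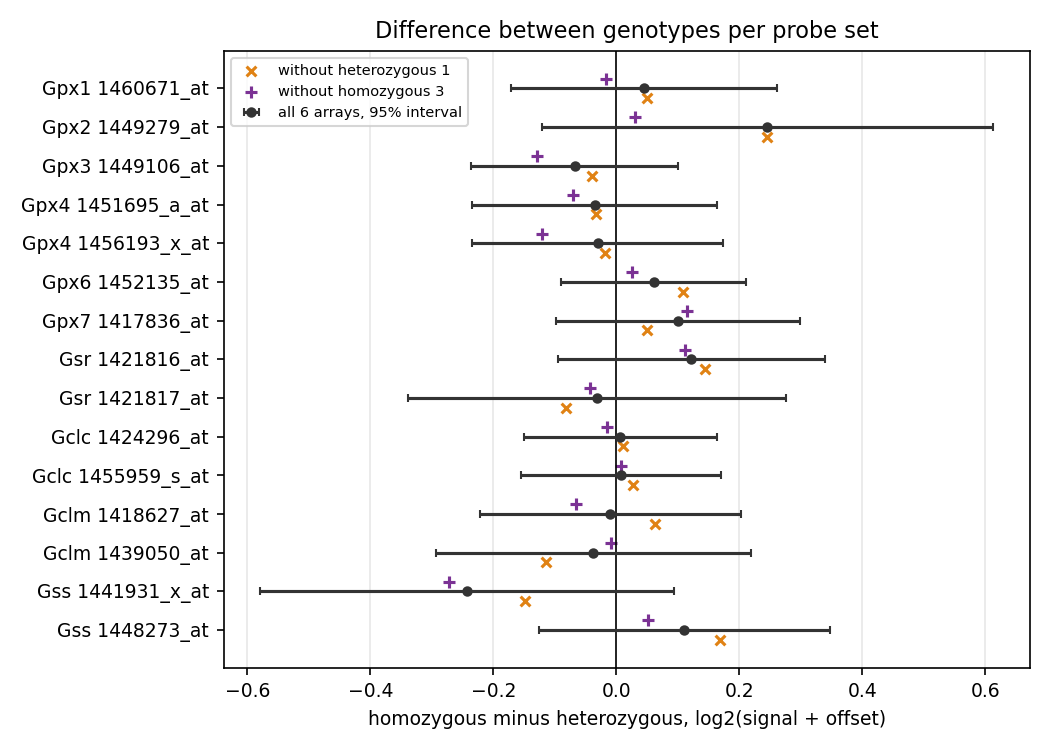
Difference between homozygous and heterozygous arrays of each probe set on the scale of log2(signal + offset), as the limma estimate (points) with its 95% interval (bars), and the estimates without heterozygous 1 (crosses) and without homozygous 3 (plus signs). Every interval spans 0; the widest are those of Gpx2 and of Gss at 1441931_x_at, and the Gpx2 estimate moves from 0.25 to 0.03 without homozygous 3.

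The members differed in how much they varied over the 6 arrays. The coefficient of variation of Gclc was 2.81% at 1424296_at and 2.22% at 1455959_s_at, the 2.8th and 0.9th percentile among the 1000 probe sets nearest to each in mean signal. That of Gpx2 was 24.0%, above 97.5% of its nearest 1000, and that of Gsr at 1421817_at was 15.0%, above 94.2%. Gpx1 at 10.02% and Gpx4 at 9.42% and 9.44% were more variable than 86.2% to 88.2% of probe sets of like signal. Gpx6, Gpx3 and Gpx7 lay at 6.62%, 6.56% and 7.10%, the 69.2nd, 51.7th and 37.5th percentile among their own nearest 1000. These shares describe the 6 arrays and were not tested.

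**Figure D4:**
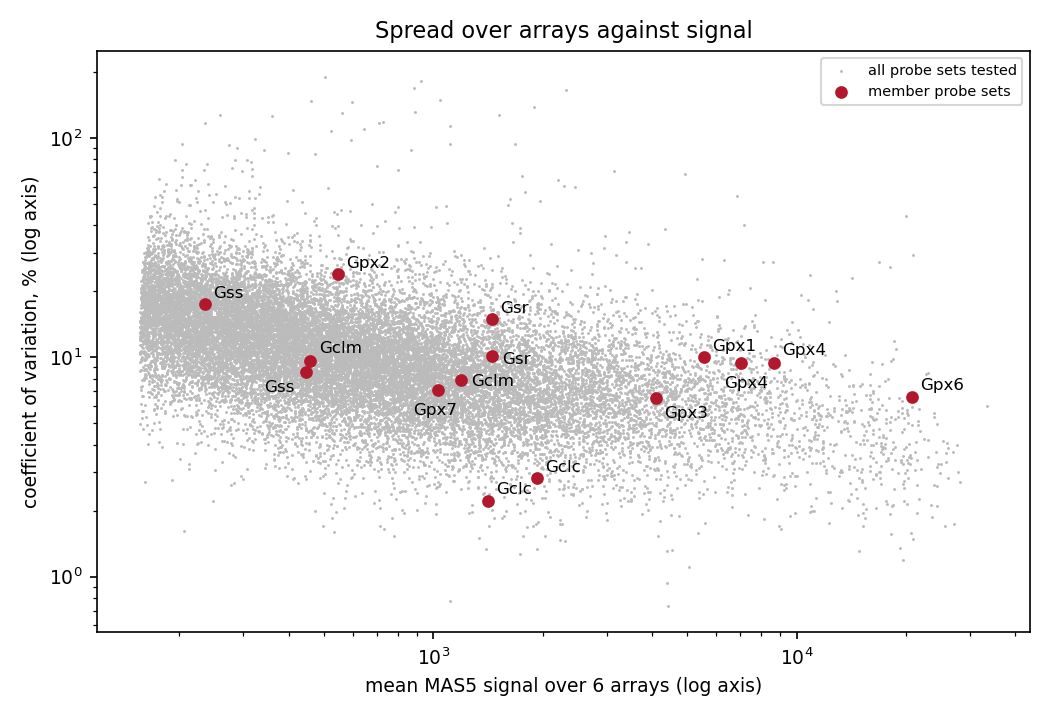
Coefficient of variation over the 6 arrays (percent, log axis) against mean MAS5 signal (log axis) for all 22514 probe sets tested (grey) and the 15 probe sets of the glutathione genes (red, with gene names). Both Gclc points lie at the lower edge of the cloud, at 2.22% and 2.81%, and Gpx2 at its upper edge, at 24.0%.

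Genes that work beside these were taken from 6 further lists of 90 genes, of which 74 were tested at their brightest probe set, 9 lay below the filter and 7 had no probe set that named them alone. In limma 0 of the 74 passed adjustment, where 0% of the 11426 genes did, and 2 passed an unadjusted p of 0.05 (2.70%, beside 4.82% of all genes). Arrays of both groups were fully separated at 8 of the 74, beside 10.3% of all genes. They were higher in homozygous arrays at 4 (4.82% of all genes) and lower at 4 (5.51%). These shares lie near or below the background. Without the library labelled heterozygous 1, 0 of the 74 passed adjustment, beside 0.0701% of the 11407 genes then tested. An unadjusted p of 0.05 was passed by 4 of the 74, Glo1, Abcc4, Sephs2 and Selenoh, beside 6.58% of all genes, and 15 had groups without overlap, beside 22.5%.

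Genes of glutathione turnover and cystine supply had a median difference of 0.04 over 14 tested genes, with 8 above 0, beside -0.00 over all genes. Oplah, which recovers glutamate from oxoproline in glutathione breakdown, read 441, 532 and 500 on the homozygous and 379, 430 and 384 on the heterozygous arrays. Its groups did not overlap, and its difference of 0.28 ± 0.11 had an unadjusted p of 0.0266 and an adjusted p of 0.859 in limma. Leaving out the library labelled heterozygous 1 gave 0.25 and an unadjusted p of 0.0716. Ggct, which acts in the same breakdown, differed by -0.24, and Slc3a2, a chain of the cystine carrier, by 0.03. Glo1, the glutathione-dependent glyoxalase, differed by 0.27, by -0.04 without heterozygous 3 and by 0.51 without the library labelled heterozygous 1. The mature neuron markers, too, had their lowest sum on heterozygous 3 and their highest on heterozygous 1. Only 2 of the 6 markers were themselves highest on heterozygous 1, and the part of these cells in the Glo1 signal was not tested. The carrier's other chain, Slc7a11, was below the filter, with signals of 5.0 to 52.3 at its brighter probe set. The peroxidase gene Gpx5, which neighbours Gpx6 in the RefSeq gene order and is known from the epididymis, was below the filter too. It read 179, 117 and 132 on the homozygous and 95.6, 67.9 and 79.8 on the heterozygous arrays, without overlap. In the limma fit without the filter its difference was 0.59 ± 0.20, with an unadjusted p of 0.0145 and an adjusted p of 0.905. Gpx5 was named after its values were seen. The shares of probe sets past that unadjusted level or without overlap in that fit are not given here.

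The thioredoxin, peroxiredoxin and glutaredoxin list, the other thiol system that removes peroxides, had a median difference of -0.00 over 14 genes, 7 of them above 0. Its bright members Txn1 (thioredoxin) and Prdx2 (a peroxiredoxin) differed by -0.00 and 0.01 at their brightest probe sets, and the other probe set of Prdx2 by -1.55. Txnrd3, a thioredoxin reductase gene, differed by 0.17 at its brightest probe set and by -0.04 and 0.05 at its others, and Nxn by 0.12. Superoxide dismutases and catalase had a median of 0.01 over 4 genes, with Sod1 at 0.07, Sod2 at -0.02 and Cat at -0.04. The list of NADPH supply, which feeds Gsr, had a median of -0.04 over 8 genes, with 2 above 0. In it Pgls differed by -0.19, Pgd by -0.10, Tkt by -0.08 and Taldo1 by 0.04 at their brightest probe sets. The other probe sets of Pgd gave -0.03, -0.02 and 0.01, and that of Tkt 0.04. Without heterozygous 2 the difference of Pgls was -0.06, and without the library labelled heterozygous 1 that of Tkt was -0.03.

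The Nrf2 system and its targets had a median of 0.03 over 12 genes, with 8 above 0. Mafk, a partner of Nrf2 on DNA, differed by 0.17, Osgin1 by 0.10, the ferritin chain gene Fth1 by 0.04 at its brightest and -0.05 at its other probe set, and Sqstm1 by 0.00. Selenoproteins and the genes that make them had a median of -0.01 over 22 genes, with 10 above 0. Selenoh, a nuclear selenoprotein gene, read 2243, 2194 and 2422 on the homozygous and 2426, 2971 and 2632 on the heterozygous arrays. Homozygous 3 and the library labelled heterozygous 1 lay next to each other without overlap, and the difference was -0.22 ± 0.09, with an unadjusted p of 0.0277 and an adjusted p of 0.859. Leaving out that heterozygous library gave -0.29 and an unadjusted p of 0.00755. Sephs2, which makes the selenium donor for selenocysteine, differed by -0.15 at its brightest probe set, Selenot by 0.03, and by -0.03 without the library labelled heterozygous 1, and Selenow by -0.06.

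**Figure D5:**
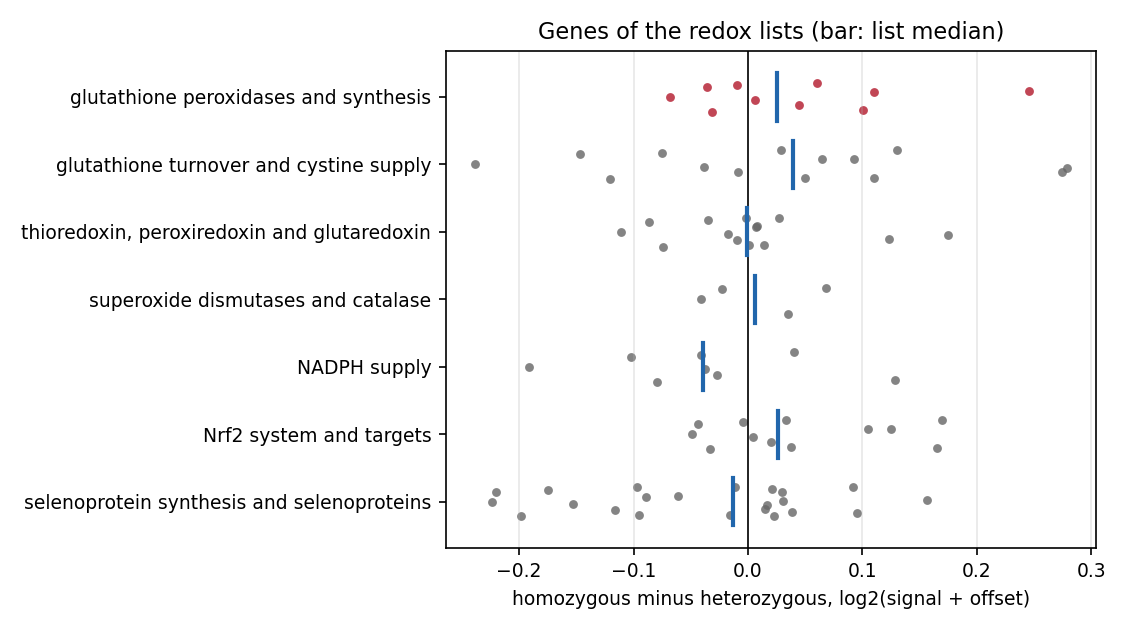
Difference between homozygous and heterozygous arrays on the scale of log2(signal + offset) for each tested gene (points) of the glutathione peroxidase and synthesis genes (red) and of the 6 further lists (grey), with each list's median as a blue bar. The list medians lie between -0.04 and 0.04, and no gene passed adjustment.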

How the data were processed

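MAS5 gave the deposited intensity values, 1 linear signal for each probe set, per the submitters' processing notes, which name no version or settings. Since the 2% trimmed mean was 500.0 on each array, no scaling was added. Array medians ran from 147.9 to 163.7, and precision is limited by the 6 arrays. The analysis used log2(signal + 38.8), where 38.8 is the pooled 25th percentile, which shrinks the differences of dim probe sets. A probe set entered the test if its mean log2 value reached the median. This left 22514 without controls, including all 15 of the members. Genotypes were compared in limma 3.58.1 under R 4.3.3, with a trend of variance on intensity and adjustment by Benjamini and Hochberg's method over everything tested. Each gene of the further lists was read at its brightest probe set in that fit (11426 genes in all). Detection calls were not used here. In simulated arrays of 22514 probe sets, log2 changes of 0.5, 1 and 2 were recovered in 29.6%, 78.8% and 98.0% of cases. These cases were 226, 170 and 204 changed probe sets, pooled over runs. The simulation used independent normal noise, with standard deviations shuffled among probe sets. It thus lacked the link of spread to signal and the libraries that stood apart, and its rates may not hold for the members.

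Members and lists were chosen with earlier results of these data known. Members were named at every probe set. Each further list gave the 2 genes of lowest p and the 2 of highest signal, and the member of widest log2 range its 5 nearest genes. Slc7a11, Gpx5 and the further probe sets of Glo1 and Prdx2 were chosen after their values were seen. Alternatives were other offsets, scalings, filters and variance models, a replicate block, a mean over the probe sets of a gene, and leaving out each array.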

Additional observations from a re-analysis of the deposited data

How the results depend on the processing

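In every alternative run, 0 of the 15 probe sets passed an adjusted p of 0.05, the lowest being 0.573. With 1 array left out, the count at an unadjusted p under 0.05 lay between 0 and 1, and the count without overlap between 0 and 3, highest without homozygous 1. The other alternatives gave 0 for both. For scale, without the library labelled heterozygous 1 the shares over all probe sets tested were 7.06% and 22.2%. The shares without other arrays are not given here, so these counts are not read as a result about the members. Over all probe sets, the count past adjustment was 0 to 25 with 1 array left out, 25 being without the library labelled heterozygous 1, and 1 with the pooled-median offset. The list genes past an unadjusted p of 0.05 numbered 1 to 4 with 1 array left out and 3 with the mean of a gene's probe sets. For scale, the share over all genes was 6.58% without the library labelled heterozygous 1. The shares in the other settings are not given here, so these counts are not read as a result about the lists. The sign of the estimate changed for 8 of the 15 probe sets when 1 array was left out, and for 7 in no alternative: those of Gpx2, Gpx3, Gpx6, Gpx7, Gss (both) and Gsr at 1421816_at. Same-numbered arrays did not deviate together (correlations 0.02, -0.12 and -0.05), beside -0.07 to 0.13 for arrays of unlike number. The check showed no pairing by number, and whether arrays were paired in another way was not tested. The replicate block gave 0 probe sets past adjustment. The filter at the 75th percentile left out Gpx2, Gss and the dimmer Gclm probe set.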

Other observations

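Glo1, which clears methylglyoxal with glutathione as cofactor, was lowest on heterozygous 3 at all 4 of its probe sets. At 1424109_a_at it read 3048 there and 5268 to 6509 on the other arrays, and at 1424108_at 2420 against 3505 to 4574. At 1451240_a_at it read 2156 against 2915 to 3889, and at 1436070_at 500 against 688 to 835. The signal of heterozygous 3 was 0.53 to 0.67 times the mean of the other arrays. The library labelled heterozygous 1 was the highest array at each of the 4. The summed signal of the 6 measured markers of mature neurons had the same extremes, 49087 on heterozygous 3 and 63031 on heterozygous 1. Of these 6 markers, 5 were themselves lowest on heterozygous 3 but only 2 highest on heterozygous 1. Their part in the Glo1 signal was not tested.

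The probe sets of Prdx2, a cytosolic peroxiredoxin abundant in neurons and red cells, disagreed. At 1418506_a_at it read 7873 to 8854 on all arrays. At 1430979_a_at it read 175, 169 and 242 on the homozygous arrays, 192 on the library labelled heterozygous 1, and 809 and 1551 on heterozygous 2 and 3. The Omp probe set 1422199_at has the same split, with 26.3 on the library labelled heterozygous 1 and 4664 and 9143 on heterozygous 2 and 3. The other Omp probe set, 1422200_at, does not have it. In limma 1430979_a_at differed by -1.55 ± 0.52 (SE) over all arrays (adjusted p 0.859). Leaving out heterozygous 1 gave -2.32 and a limma adjusted p of 0.00466, the lowest over the alternatives, whose highest was 1.00. Without heterozygous 3 the difference was -0.93, with a limma adjusted p of 0.522. The probe set was chosen after its values were seen, and heterozygous 1 is the array that read unlike its group there. The value of 0.00466 is therefore no test of the genotypes. Both probe sets of Prdx2 are named for this gene alone in the platform annotation, and what 1430979_a_at binds was not tested.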
